A study of Homo sapiens with 6 samples.

Results

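Metallothioneins and the genes of the cellular zinc response were followed in OVCAR5, an established epithelial ovarian cancer cell line, with and without SpiD7 treatment. The 10 genes were chosen by symbol, with earlier results of these data known: 8 metallothionein genes (MT1A, MT1E, MT1F, MT1G, MT1H, MT1M, MT1X and MT2A), the zinc exporter gene SLC30A1 and the transcription factor gene MTF1. All 10 were found among the 29982 gene symbols of the deposited table. Of these, 6 had a mean level of at least 1 FPKM, a fragment count scaled to transcript length and library size, over the 6 libraries, as did 13287 symbols in all, and the other 4 were listed at 0 in every library.

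The series held 2 libraries of cells treated with DMSO, the vehicle, 2 libraries of cells given 10 μM SpiD7 for 2 h, and 1 library each for 6 h and 12 h of SpiD7 at the same dose. SpiD7 is a spirocyclic dimer made by the study to modify cysteine residues at protein surfaces covalently. The question put to the data was whether a compound that reacts with thiols moves the genes that respond to free zinc. All cells were of 1 line, the labels give no duration for DMSO, and the same DMSO libraries serve as the control of every time point. Nothing in the labels says that libraries of a group came from separate cultures, so that p-values measure only the spread between these libraries.

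Metallothioneins are small proteins rich in cysteine, whose thiolates bind zinc, copper and cadmium. MTF1 is the zinc-sensing transcription factor of the cell: when free zinc rises it moves to the nucleus and binds metal response elements in the promoters of metallothionein genes and of SLC30A1, which exports zinc across the plasma membrane. Zinc in proteins is often held by cysteines, so that compounds that react with thiols can release it, and induction of metallothionein RNA is a common readout of such release. MTF1 is controlled largely through its protein, and the level of its RNA is not a measure of its activity.

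Promoters of 5 of the 10 genes (MT1H, MT1X, MT2A, SLC30A1 and MTF1) were in the RefSeq table of GRCh38.p14, and those of MT1A, MT1E, MT1F, MT1G and MT1M were not analysed here. The 250 bases before the RefSeq start of 4 genes are shown, because they hold the letters that MTF1 is known to bind and belong to genes with very different levels in OVCAR5. They are written in the direction of the gene, with the metal response element core (TGCGCNC or TGCACNC, on either strand) in capitals. The windows are chr16:56608334-56608583 for MT2A, chr16:56682220-56682469 for MT1X and chr16:56669564-56669813 for MT1H, all on the plus strand, and chr1:211579162-211579411 on the minus strand for SLC30A1.
MT2A: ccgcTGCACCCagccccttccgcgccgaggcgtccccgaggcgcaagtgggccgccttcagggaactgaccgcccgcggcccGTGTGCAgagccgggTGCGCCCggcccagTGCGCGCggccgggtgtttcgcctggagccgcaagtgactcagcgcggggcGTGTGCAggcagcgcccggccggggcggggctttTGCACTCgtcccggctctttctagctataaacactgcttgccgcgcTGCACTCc
MT1X: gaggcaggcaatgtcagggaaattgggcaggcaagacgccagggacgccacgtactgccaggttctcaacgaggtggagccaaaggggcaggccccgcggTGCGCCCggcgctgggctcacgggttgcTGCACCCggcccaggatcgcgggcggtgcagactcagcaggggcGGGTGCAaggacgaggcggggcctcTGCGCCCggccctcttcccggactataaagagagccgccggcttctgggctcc
MT1H: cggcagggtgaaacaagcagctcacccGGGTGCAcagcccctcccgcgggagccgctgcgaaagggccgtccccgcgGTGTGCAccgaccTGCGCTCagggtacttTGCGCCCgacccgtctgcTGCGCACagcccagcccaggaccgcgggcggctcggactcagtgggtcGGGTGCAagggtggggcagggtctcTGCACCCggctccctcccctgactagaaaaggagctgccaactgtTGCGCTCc
SLC30A1: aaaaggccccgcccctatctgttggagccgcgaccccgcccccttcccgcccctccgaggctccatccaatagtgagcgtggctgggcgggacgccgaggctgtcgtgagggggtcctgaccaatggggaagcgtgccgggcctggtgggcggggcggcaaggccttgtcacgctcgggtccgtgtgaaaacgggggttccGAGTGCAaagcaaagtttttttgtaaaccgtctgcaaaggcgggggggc

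The MT2A promoter held 7 matches to the core, MT1H 8, MT1X 4 and SLC30A1 1, and the MTF1 promoter held 0. The SLC30A1 window ends at 211579162, upstream of the GENCODE start of that gene at 211578742, and the bases between were not searched. Windows of the other genes reach their GENCODE starts, so the SLC30A1 count is not like for like with theirs. At least 1 match was present in 24.8% of 35116 promoters of the same length, at least 4 in 0.37% and at least 7 in 0.0313%. The antioxidant response element core, TGACNNNGC, had 1 match each in MT2A, MT1X and SLC30A1 and is found in 10.9% of all promoters. The heat shock element core, GAANNTTC, had no match in any of the 5 and is found in 5.78% of all promoters. No match to these motifs overlapped another. A match is a run of letters and not a measured binding site. MT1H carried the most matches of the 5 promoters and was listed at 0 in all 6 libraries, and MT2A with 7 matches was the most abundant of the 10 genes.

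The table gives an FPKM value for each side of 4 comparisons and no read counts. The methods state an approximate read number for all libraries alike, and the table gives no depth per library, so that no counting error is given. The smallest steps in the values place the depth of the other libraries between 0.763 and 1.11 times that of DMSO replicate 1. The second column of DMSO and that of 2 h contain the first library of the group: 0 of 18195 rows above 0 in DMSO replicate 1 were at 0 in the second DMSO column. They were read as the authors' means, and replicate 2 was recovered as what remained, on the assumption of equal weights. The replicates stood apart: DMSO replicates differed more than 2-fold in 1792 of 13287 genes and the 2 h replicates in 1453. MIR6723 accounted for 25.04% and 21.8% of summed FPKM in the recovered DMSO and 2 h libraries, against 5.04% to 9.19% in the other 4, and its part in the results was not tested. Epithelial markers were high (EPCAM 77.4 to 86.5 and KRT8 1460 to 2190 FPKM). Of the ovarian or Mullerian markers, PAX8 was at 1.64 to 2.12 FPKM, and WT1 and MUC16 were under 1 FPKM in every library. The leukocyte marker CD3E was at 0 in all 6 libraries and PTPRC at 0.0317 FPKM at most, while CD14 was at 3.10 to 9.36 FPKM. Summed fibroblast markers were at 0.674 to 2.47 FPKM. Summed endothelial markers reached 11.5 FPKM in DMSO replicate 2 and 8.31 in 2 h replicate 2, mostly from PECAM1, against 0.441 to 1.20 FPKM in the other 4 libraries.

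No detected metallothionein gene was higher in any SpiD7 library than in the higher of the DMSO libraries (0 of 16 values, 4 genes in 4 libraries). The same held for 41.0% of the 13287 genes, so that it does not set the metallothioneins apart. MT2A, the main metallothionein of many human cells, was abundant throughout, at 1002 and 686 FPKM in DMSO replicates 1 and 2, and after SpiD7 958 and 498 (2 h), 918 (6 h) and 660 (12 h). Every SpiD7 library lay below DMSO replicate 1, and the DMSO and 2 h groups overlapped. For MT2A, limma gave a 2 h log2 fold change of -0.26 (SE 0.44, adjusted p = 1.0, 2 libraries against 2), with a 95% confidence interval of 0.338-fold to 2.05-fold. This fit, like those of the other genes, took no account of replicate number. Its spread thus includes the difference of replicate 2 from replicate 1, log2 -0.55 in DMSO and -0.94 at 2 h. At 6 h, where there was a single library, MT2A was 0.917 times DMSO replicate 1 and 1.34 times DMSO replicate 2. At 12 h it was 0.659 and 0.962 times these libraries. In bulk RNA, fewer cells with a transcript and less of it per cell cannot be told apart. Among the 13287 genes ordered by FPKM, MT2A held rank 122 and 146 in DMSO, and after SpiD7 120 and 177 (2 h), 152 (6 h) and 189 (12 h), an order that does not depend on the scaling of a library.

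MT1E had 359 and 203 FPKM in DMSO, and after SpiD7 345 and 172 (2 h), 358 (6 h) and 209 (12 h). The 6 h library was thus next to DMSO replicate 1 and the 12 h library next to DMSO replicate 2. For MT1E, limma gave a 2 h log2 fold change of -0.15 (SE 0.51, adjusted p = 1.0). Against the mean of the DMSO log2 values, the single 6 h and 12 h libraries were at 0.41 and -0.37. MT1X had 105 and 54.8 FPKM in DMSO, and after SpiD7 100.2 and 54.8 (2 h), 99.1 (6 h) and 75.8 (12 h). Each SpiD7 library lay between the DMSO libraries or level with the lower of them. For MT1X, limma gave a 2 h log2 fold change of -0.036 (SE 0.51, adjusted p = 1.0), and the 6 h and 12 h libraries were at 0.38 and -0.0039.

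MT1F was the lowest of the 4 detected metallothioneins, with 6.38 and 8.60 FPKM in DMSO, and after SpiD7 5.49 and 6.41 (2 h), 6.28 (6 h) and 6.77 (12 h). Here replicate 2 was the higher library in both groups, the reverse of MT2A, MT1E and MT1X. Of all genes, 54.1% were lower in replicate 2 of DMSO and 54.6% in replicate 2 of 2 h. For MT1F, limma gave a 2 h log2 fold change of -0.32 (SE 0.24, adjusted p = 1.0), and the 6 h and 12 h libraries were at -0.235 and -0.13. Within same-numbered libraries at 2 h it was -0.21 for replicate 1 and -0.42 for replicate 2. The 95% confidence interval at 2 h ran from 0.495-fold to 1.30-fold, the narrowest of the detected metallothioneins.

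**Figure D1:**
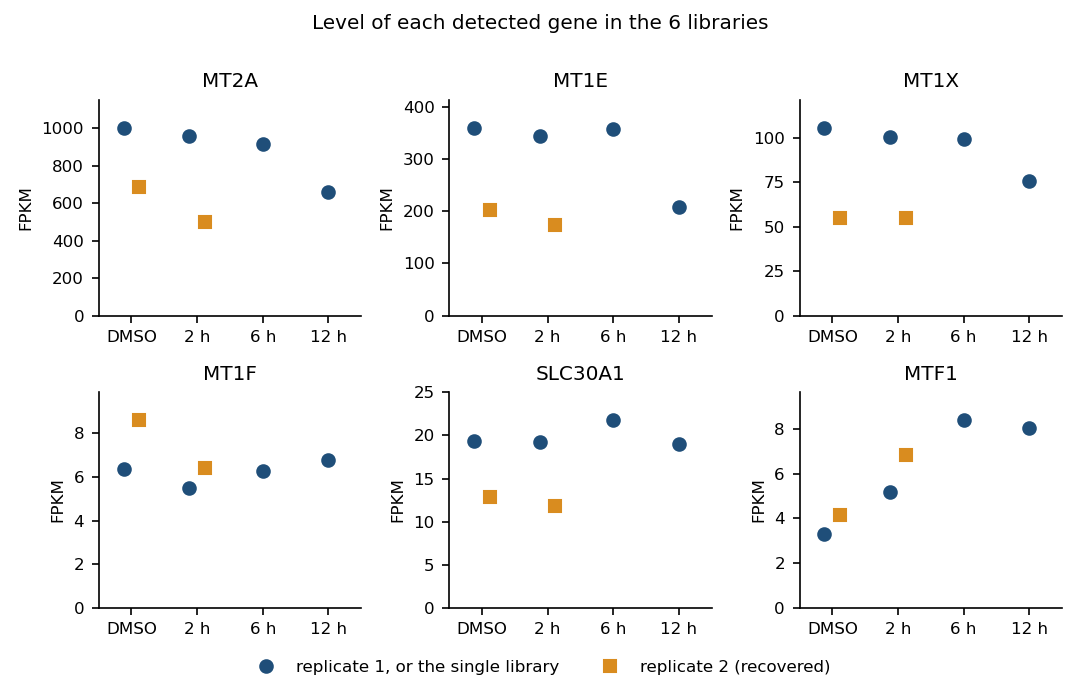
Level in FPKM (vertical axes, linear from 0) of the 6 detected genes in each library, by treatment (horizontal axes). Circles are replicate 1 or the single library and squares the recovered replicate 2. MT2A, MT1E, MT1X and SLC30A1 are lower in replicate 2 than in replicate 1, while MTF1 is above both DMSO libraries (3.28 and 4.13 FPKM) in all 4 SpiD7 libraries.

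Summed over the family, metallothionein RNA stood at 1473 and 952 FPKM in DMSO replicates 1 and 2, and after SpiD7 1408 and 731 (2 h), 1382 (6 h) and 951 (12 h). No SpiD7 library exceeded DMSO replicate 1 in this sum. The sum of 2 h replicate 2 was below both DMSO libraries, and that of 12 h was level with DMSO replicate 2. FPKM is a level per length of transcript, so that the genes can be set against each other. MT2A supplied 66.5% to 72.1% of the sum in the 6 libraries, MT1E 21.3% to 25.9%, MT1X 5.75% to 7.97% and MT1F 0.390% to 0.903%. The order of MT2A, MT1E, MT1X and MT1F was the same in every library. The ratio of MT2A to MT1E, which the scaling of a library cannot change, was 2.79 and 3.39 in DMSO, and after SpiD7 2.78 and 2.88 (2 h), 2.56 (6 h) and 3.16 (12 h). The SpiD7 values of this ratio were within or under those of DMSO. The ratio of MT2A to MT1X was 9.51 and 12.5 in DMSO, and after SpiD7 9.56 and 9.08 (2 h), 9.27 (6 h) and 8.71 (12 h).

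**Figure D2:**
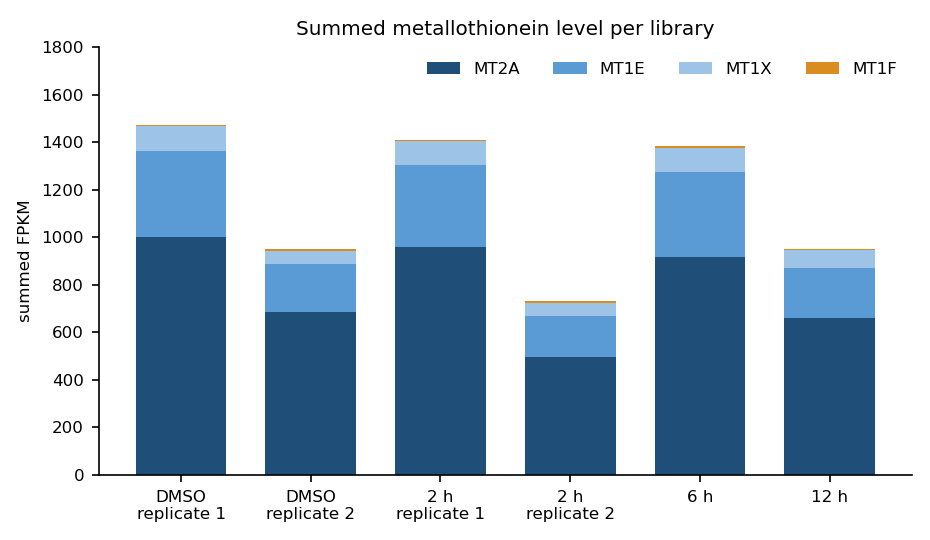
Summed FPKM (vertical axis, from 0) of the metallothionein genes in each library (horizontal axis), with the part of each gene as a segment. The sums run from 731 to 1473, and the MT2A segment is the largest in every bar.

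MT1A, MT1G, MT1H and MT1M were listed at 0 in all 6 libraries. They lie with the 4 detected metallothionein genes in 76.0 kb of chromosome 16 (56608199 to 56684196 in GENCODE release 29, GRCh38), a row of short genes of up to 3 exons each. In a table without counts, a 0 can be a failed estimate, so that the genes are given here only as listed at 0, before and after SpiD7. MT1G and MT1H are often inducible by zinc in other cells. Of 8 further metallothionein genes and pseudogenes in the table, 5 (MT1HL1, MT1IP, MT1L, MT3 and MT4) were also at 0 throughout. MT1B was at 0.387 FPKM at 12 h, MT1DP at 0.505 in 2 h replicate 2 and MT1JP at 0.315 in 2 h replicate 1, and each was at 0 in the other 5 libraries.

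Because the study read single ends of 50 bases, near-identical copies can share reads, and the counting may have split them. Of all 50-base windows in the annotated transcripts, 18.3% of those of MT1X, 16.5% of MT1G, 15.8% of MT1H, 9.87% of MT1M, 7.10% of MT1E, 5.76% of MT1A, 3.02% of MT2A and 1.22% of MT1F occur exactly in a transcript of another gene. For MT1X, 273 of the 341 shared windows are in a single other annotated gene. Most windows of each of the 8 genes were thus its own, but windows that differ by a base were not counted as shared, and the levels of the MT1 genes carry this uncertainty. SLC30A1 shared 0 of its 5425 windows and MTF1 0.64%.

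SLC30A1, the plasma membrane zinc exporter and a target of MTF1, had 19.3 and 12.9 FPKM in DMSO, and after SpiD7 19.2 and 11.8 (2 h), 21.8 (6 h) and 19.0 (12 h). The 6 h library was the highest, 1.13 times DMSO replicate 1 and 1.68 times DMSO replicate 2. At 12 h the level was between those of the DMSO libraries. For SLC30A1, limma gave a 2 h log2 fold change of -0.068 (SE 0.38, adjusted p = 1.0), and the 6 h and 12 h libraries were at 0.46 and 0.26. The 95% confidence interval at 2 h was 0.441-fold to 2.06-fold. At 6 h, 31.6% of all genes lay above both DMSO libraries. The gene is on chromosome 1 (211571568 to 211578742 of GRCh38, minus strand), away from the metallothionein cluster, and its replicates differed in the same direction as those of MT2A, MT1E and MT1X.

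MTF1, the zinc sensor itself, was higher in every SpiD7 library than in either DMSO library, but it did not pass the test at 2 h. It had 3.28 and 4.13 FPKM in DMSO, and after SpiD7 5.20 and 6.81 (2 h), 8.38 (6 h) and 8.02 (12 h). All 4 SpiD7 libraries exceeded both DMSO libraries, as they did for 8.93% of all genes, and at 2 h the groups did not overlap, as for 13.7% of all genes on this side. For MTF1, limma gave a 2 h log2 fold change of 0.68 (SE 0.24, unadjusted p = 0.0580 and adjusted p = 1.0, 2 libraries against 2), with a 95% confidence interval of 0.973-fold to 2.63-fold. The same-numbered libraries gave 0.65 and 0.71. At 6 h MTF1 was 2.50 times DMSO replicate 1 and 2.00 times DMSO replicate 2, and 3.21% of all genes were more than 2-fold above each. At 12 h it was 2.40 and 1.92 times these libraries. The difference between 6 h and 12 h, a log2 value of -0.062, was smaller than the difference of 0.32 between the DMSO libraries. MTF1 lies on chromosome 1 (37809567 to 37859620 of GRCh38, minus strand) with up to 11 exons, and its promoter window held no metal response element core.

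Limma at 2 h called 0 of the 6 detected genes (adjusted p under 0.05 and more than 2-fold), against 3 of 13287 genes or 0.0226% of all. At an unadjusted p under 0.05 it found 0 of the 6, against 2.84% of all genes, and 0 of the 6 were more than 2-fold higher (2.32% of all) or lower (0.662%). A limma fit of all 4 groups, which lets the single libraries be tested on the spread of the pairs, called 0 of the 6 at 6 h (0.294% of all) and 0 at 12 h (0.339%). At 6 h, 1 of the 6 (MTF1) was more than 2-fold above the DMSO mean, against 5.66% of all genes, and 0 were more than 2-fold lower, against 3.10%. At 12 h, 1 of the 6 (MTF1 again) was more than 2-fold higher, against 6.48%, and 0 were lower, against 3.76%. The median log2 fold change of the 6 was -0.11, 0.40 and -0.066 at 2 h, 6 h and 12 h, beside -0.0082, 0.033 and -0.051 for all genes. The 6 h median depends on the DMSO library used. For MT1E, MT1F, MT1X, MT2A, SLC30A1 and MTF1, the 6 h values were -0.0045, -0.023, -0.089, -0.126, 0.17 and 1.325 against DMSO replicate 1. Against DMSO replicate 2 they were 0.82, -0.45, 0.85, 0.42, 0.75 and 1.003. The value of MTF1 at 12 h was past 2-fold against DMSO replicate 1 (log2 1.26) but not against DMSO replicate 2 (0.94), nor with a pseudocount of 1. The direction of MT2A, MT1E, MT1X and SLC30A1 at 2 h turned without DMSO replicate 1 (log2 0.0088, 0.27, 0.43 and 0.22) or without 2 h replicate 2 (0.21, 0.35, 0.40 and 0.28), fits in which replicate numbers are mixed. Between same-numbered libraries the 2 h differences were -0.065 and -0.46 for MT2A, -0.060 and -0.23 for MT1E, -0.073 and 0.00020 for MT1X, and -0.0085 and -0.13 for SLC30A1.

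**Figure D3:**
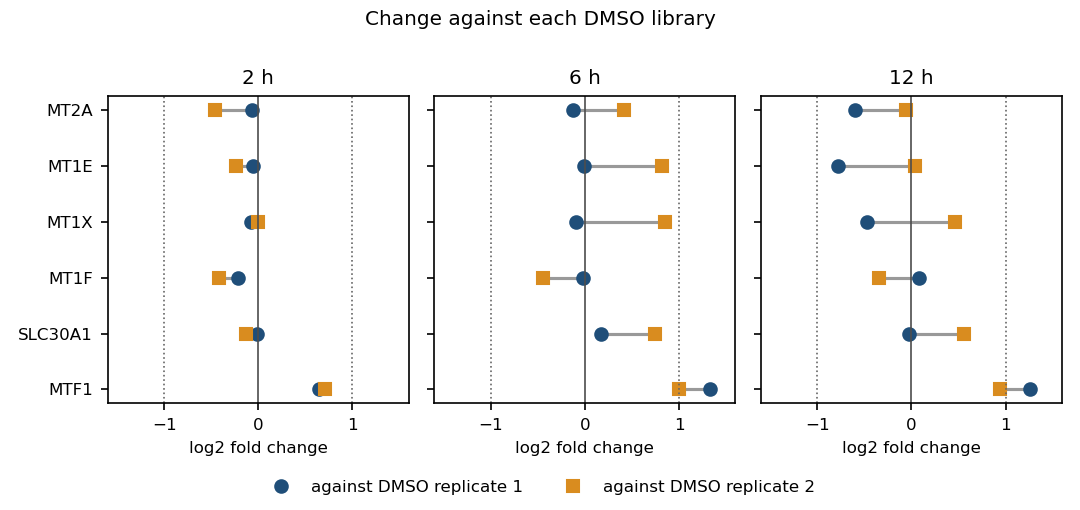
Log2 fold change (horizontal axes) of the 6 detected genes against DMSO replicate 1 (circles) and DMSO replicate 2 (squares), with dotted lines at 2-fold. At 2 h, same-numbered libraries are compared, and at 6 h and 12 h the single library is set against each DMSO library. MT1X at 12 h runs from -0.47 to 0.47, and MTF1 is on the positive side in all 6 comparisons.

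Other genes of zinc handling were taken from a list of 24 transporter genes, of which 16 passed the filter. At 2 h, 0 of the 16 were more than 2-fold higher (2.32% of all genes) or lower (0.662%), and limma called 0 (0.0226%). At 6 h none passed 2-fold, against 5.66% of all genes higher and 3.10% lower. At 12 h 1 was more than 2-fold higher (6.48% of all genes) and 0 lower (3.76%). The median log2 fold change of the 16 was -0.049, -0.023 and -0.105 at 2 h, 6 h and 12 h, beside -0.0082, 0.033 and -0.051 for all genes. SLC30A3, which loads zinc into vesicles, had 1.501 and 1.36 FPKM in DMSO, and after SpiD7 1.58 and 1.43 (2 h), 2.79 (6 h) and 3.71 (12 h). It was the gene past 2-fold, with log2 fold changes at 12 h of 1.25 against DMSO replicate 1 and 1.38 against DMSO replicate 2. SLC39A8, an importer of zinc and manganese, was lowest at 12 h against the DMSO mean, with 4.56 FPKM against 8.82 and 6.82 in DMSO, a log2 fold change of -0.75.

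**Figure D4:**
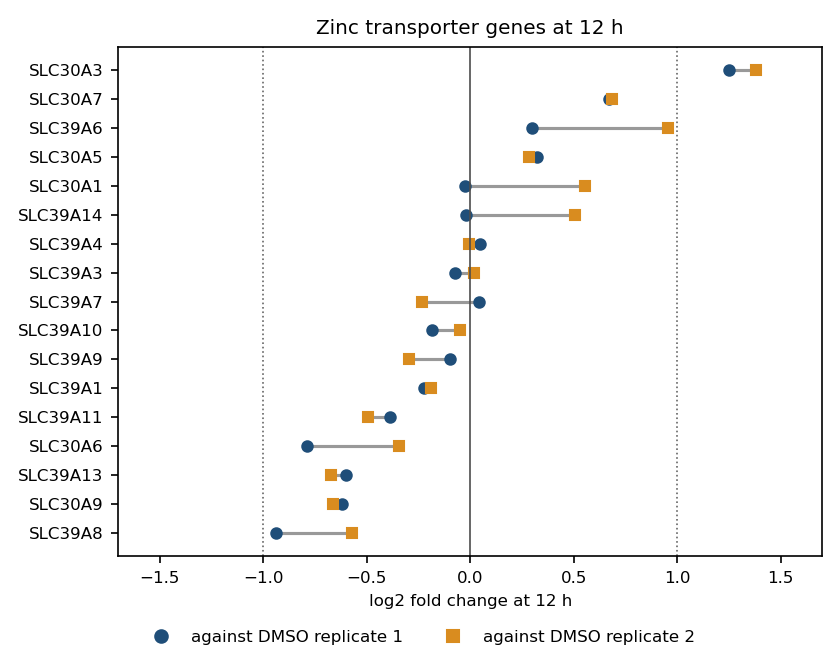
Log2 fold change at 12 h (horizontal axis) of SLC30A1 and the 16 other detected zinc transporter genes against DMSO replicate 1 (circles) and DMSO replicate 2 (squares), with dotted lines at 2-fold. Each value comes from a single 12 h library. SLC30A3 is past 2-fold against both DMSO libraries, and SLC39A8 is the lowest against DMSO replicate 1 (-0.94), while SLC39A13 is the lowest against DMSO replicate 2 (-0.67).

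Copper is also bound by metallothioneins, and all 10 genes of a copper handling list passed the filter. None was more than 2-fold higher or lower at 2 h, 6 h or 12 h. Of all genes, 2.32%, 5.66% and 6.48% were higher at these times and 0.662%, 3.10% and 3.76% lower. The medians of the copper genes were -0.033, 0.10 and 0.035, beside -0.0082, 0.033 and -0.051 for all genes. At 12 h the highest was SLC31A2, a copper transporter gene, with a log2 fold change of 0.55, and the lowest ATP7B, a copper pump, with -0.48. Of the other MTF1 target genes listed, PGF, a growth factor of the VEGF family, had 7.19 and 14.4 FPKM in DMSO, and after SpiD7 10.8 and 17.1 (2 h), 29.01 (6 h) and 38.1 (12 h). The 2 h group overlapped DMSO, and the 12 h library was at log2 2.39 against DMSO replicate 1 and 1.39 against DMSO replicate 2. GCLC, the catalytic subunit of the first enzyme of glutathione synthesis, had 18.7 and 17.1 FPKM in DMSO, and after SpiD7 22.3 and 22.5 (2 h), 25.3 (6 h) and 16.9 (12 h). GCLC was thus above both DMSO libraries at 2 h and 6 h, as were 13.7% and 31.6% of all genes. At 12 h it was just under the lower DMSO library. In limma at 2 h, neither PGF nor GCLC was called, against 0.0226% of all genes. PGF was more than 2-fold above the DMSO mean at 6 h and 12 h, as were 5.66% and 6.48% of all genes.

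Metallothionein genes also answer glucocorticoids, through the receptor encoded by NR3C1. Of 6 listed genes of that response, 5 passed the filter, and none was more than 2-fold higher or lower at 2 h, 6 h or 12 h. The shares of all genes past 2-fold are those given for the copper genes. The medians of the 5 were 0.037, -0.14 and -0.23, beside -0.0082, 0.033 and -0.051 for all genes. TSC22D3, a leading glucocorticoid target, had 2.42 and 8.30 FPKM in DMSO, and after SpiD7 3.43 and 9.82 (2 h), 3.69 (6 h) and 5.00 (12 h). KLF9, another target, was the lowest of them at 12 h, with a log2 fold change of -0.71, but its DMSO libraries were at 0.664 and 3.63 FPKM.

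Of 10 listed protein-coding genes near the metallothionein cluster on chromosome 16, 7 passed the filter. HERPUD1, which serves ER-associated degradation, had 14.3 and 33.2 FPKM in DMSO, and after SpiD7 50.7 and 79.7 (2 h), 248 (6 h) and 350 (12 h). It was more than 2-fold higher at 2 h, 6 h and 12 h, with log2 fold changes of 1.54, 3.504 and 3.998 against the DMSO mean. It was not called by limma at 2 h (adjusted p = 1.0, 95% confidence interval 0.960-fold to 8.79-fold) or in the fit of all 4 groups (adjusted p = 0.556 at 6 h and 0.405 at 12 h). The other 6 were within 2-fold at 2 h and 6 h, and at 12 h BBS2, a gene of the cilium, and NLRC5, a regulator of MHC class I genes, were at -1.002 and -1.05 against the DMSO mean. Both were past 2-fold against DMSO replicate 2 (-1.19 and -1.34) and not against DMSO replicate 1 (-0.81 and -0.75). More than 2-fold higher were 2.32%, 5.66% and 6.48% of all genes at 2 h, 6 h and 12 h, and 3.76% were lower at 12 h. The medians of the 7 were -0.0077, 0.043 and -0.38, beside -0.0082, 0.033 and -0.051 for all genes.

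The levels of MT1E and MT2A had a Pearson correlation of 0.967 over the 6 libraries, MT1E and MT1X 0.948 and MT1X and SLC30A1 0.926, whereas MT1E and MTF1 had -0.233. MT1F ran the other way, with -0.557 for MT1E, -0.679 for MT1X, -0.393 for MT2A, -0.534 for SLC30A1 and -0.235 for MTF1. These values are descriptions, since the libraries include replicates that stand apart. The profile most like the mean of the 6 detected genes was that of PSMA3 (r = 0.9995 over 6 libraries), a proteasome subunit gene, followed by EIF3D, SLC22A4, SLC25A17 and PHGDH (0.997 to 0.992). For SLC30A1 it was SNRPB (0.997), a spliceosome gene, followed by YWHAQ, PSMA1, PPP2R3A and SF3A3. PSMA3 had 192 and 165 FPKM in DMSO, and after SpiD7 196 and 159 (2 h), 213 (6 h) and 185 (12 h), again with the lower value in replicate 2. For MTF1, a profile added after its values were seen, the most alike were ZNF432, GAS5, RNMT, TRIM36 and PTP4A1 (0.997 to 0.992). ZNF432 had 2.14 and 2.62 FPKM in DMSO, and after SpiD7 3.90 and 5.03 (2 h), 6.56 (6 h) and 6.39 (12 h).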

How the data were processed

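RNA of OVCAR5 cells was sequenced in 6 libraries by the authors, who used Trim Galore on 50-base single reads, then TopHat2 2.0.8 for alignment, Cufflinks 2.1.1 for expression and Cuffdiff 2.1.1 for comparisons. The deposited loci are given in hg38, while the methods name GRCm38. What the authors deposited is FPKM for each side of 4 comparisons, scaled separately, with their fold changes and test results, which were not used. Columns of values without a sample or group numbered 0.

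Libraries at 6 h and 12 h were rescaled to the first comparison through the DMSO library they share (factors 0.972 and 0.994). The columns named for replicate 2 were read as group means. The share of the first library was 0.526 for DMSO (810 rows at the lower limit) and 0.509 for 2 h (958 rows), and replicate 2 is the remainder divided by that share, with a remainder under 0.2% of the mean taken as 0. This rests on the values alone. Rows of a symbol were summed (33085 rows), genes were kept at a mean of 1 FPKM or more, and log2(FPKM + 0.1) was used, which understates changes of low genes. For 2 h against DMSO, limma 3.58.1 (R 4.3.3) was fitted with Benjamini-Hochberg adjustment, without a block. The single libraries at 6 h and 12 h were described by fold change and tested only in the alternative fit of all 4 groups. The test was checked only on simulated data with the same spread for every gene and no difference shared by same-numbered libraries. These libraries differ from that setting, so the check does not vouch for the test on them. Promoters came from RefSeq, gene positions and transcripts from GENCODE release 29, and Python 3.11.15 and pandas 2.3.3 were used.

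The 10 genes and all gene lists were chosen with earlier results of these data known. Genes named were the 10, the genes of each list past 2-fold at 12 h against both DMSO libraries or else its highest and lowest, and the 5 most alike in profile. Chosen after their values were seen were SLC39A8, GCLC, BBS2, NLRC5, MIR6723, the metallothionein genes outside the 10, and MTF1 as a reference profile with its 5 genes. A comparison of protein sequences was planned and not made, since no protein table was used here. Alternatives were other pseudocounts, filters, scalings, treatments of repeated symbols, a replicate block, an intensity trend, a fit of all 4 groups, the deposited mean columns alone, and leaving out each replicate.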

Additional observations from a re-analysis of the deposited data

How the results depend on the processing

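Limma called 3 genes at 2 h, none of them among the 10. It called 0 with the replicate block (1874 at an unadjusted p under 0.05), 1 with a pseudocount of 1, 6 with a pseudocount of 0.01, 0 with no filter, 1 with median-ratio or upper-quartile scaling and 5 with an intensity trend, and from 0 to 21 when each replicate was left out. The replicate numbers pair the libraries by label only (correlation of deviations 0.369), and with the block MTF1 reached p = 0.00471 in limma before adjustment and an adjusted p = 0.329. Genes past 2-fold at 6 h (1164) numbered 771 with a pseudocount of 1, 2948 with no filter, 572 at a mean FPKM of at least 5, and 966 to 2063 with a DMSO replicate left out. At 12 h (1360) they numbered 869, 3395, 682 and 1627 to 1937. Of the 10 genes, 1 was past 2-fold at 12 h, and 0 were with a pseudocount of 1 and 0 to 1 with a DMSO replicate left out. Fewer or more genes tested, or fewer libraries, are part of the filters and of leaving out replicates, and for the other settings the cause was not tested. At 2 h, log2 fold changes with each replicate left out ran from -0.64 to 0.35 for MT1E, -0.51 to 0.43 for MT1X, -0.74 to 0.21 for MT2A and -0.42 to 0.28 for SLC30A1, and such fits mix replicate numbers. The other 202 values of the detected genes counted as unchanged. At 2 h these kept their direction. At 6 h and 12 h they moved by no more than the SD of the DMSO libraries, a limit that leaving out a DMSO replicate cannot exceed. Without DMSO replicate 2, the sign at 6 h turned for MT1E (-0.0045), MT1X (-0.089) and MT2A (-0.13). At 12 h it turned for MT1F (0.084) and SLC30A1 (-0.026). Without DMSO replicate 1, the 12 h sign turned for MT1E (0.042) and MT1X (0.47), and for MT1X also with either scaling (0.044 and 0.052). Over all alternatives, limma gave 0 of 102 tests of these genes an adjusted p under 0.05, the fit of all 4 groups included, in which the single libraries are assumed to vary like the pairs (MTF1 adjusted p = 0.746 at 6 h and 0.496 at 12 h). These tests are refits of the same libraries and not separate evidence. The main fit called only 0.0226% of all genes at 2 h, so that a count of 0 among the detected genes carries little weight. The table gives no counts, so that no limit from depth was computed, and the recovered libraries rest on the reading of the mean columns.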
